A study of Gallus gallus with 10 samples.

Results

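The 10 genes described here mark the lining of blood vessels and of the heart chambers or control its development. They are the vascular endothelial growth factor receptor genes KDR, FLT1 and FLT4, the receptor tyrosine kinase genes TIE1 and TEK, the adhesion gene CDH5, the transcription factor genes SOX18, ERG and FLI1, and the haemostasis gene VWF. Their probe sets, 25 in number, were found by gene symbol in the annotation of the array, with no measured value used in that search. The genes themselves were chosen with earlier results of these data known. KDR and FLT4 had 5 probe sets each, FLT1 and VWF 3, TIE1, TEK and ERG 2, and CDH5, SOX18 and FLI1 had 1. Of these 25, 22 were bright enough to be tested, including at least 1 for every gene. The whole array held 38535 probe sets, which named 13009 genes, and 10284 genes had a probe set above the filter on dim probe sets. A further probe set that the annotation gives to FLT4 and to the macrophage receptor gene CSF1R together was not counted.

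RNA of whole embryonic chicken hearts was hybridised to 10 arrays of a 1-colour design, 5 with pools from males and 5 with pools from females. The labels call the tissue harvested and name no treatment, strain or genotype. The stage of the embryos, how many hearts made a pool and whether pools had embryos in common are left unstated by the labels, so every p-value below measures the spread between these pools, some of which may be technical. Each array gives 1 intensity per probe set, on a scale that the authors had already brought to a common level, and the 10 arrays had medians from 605 to 735.

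Blood vessels and the endocardium, the inner lining of the heart, are both made of endothelial cells. In vertebrates, VEGF-family ligands signal through KDR, FLT1 and FLT4, and angiopoietins through TEK with TIE1 as its partner, while CDH5 joins the cells to each other. ETS and SOXF transcription factors, among them ERG, FLI1 and SOX18, switch on such genes, and VWF is stored by endothelial cells and captures platelets in mammals. In birds females are ZW and males ZZ, and TEK was the single Z-linked gene of the 10, while the other 9 lie on autosomes.

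None of the 10 genes passed the threshold for a difference between male and female hearts after correction for the number of probe sets. Intensities were compared as log2(intensity + 16) in limma, and a ratio here is male minus female on that scale, with its standard error and with 5 pools per sex, so it understates differences of dim probe sets. The limma adjusted p of the 10 genes ran from 0.342 for SOX18 to 0.956 for FLI1, and 0 of their 22 tested probe sets passed 0.05. Among all 10284 genes, 1.99% were called higher in males and 0.233% lower in males, and among 9765 autosomal genes 0.164% were called in either direction, so a count of 0 among 10 genes is near the background. At an unadjusted limma p under 0.05 there were 2 of the 10, TIE1 and SOX18, both lower in males, against 10% of all genes. Arrays of males and females overlapped for all 10, whereas they did not overlap for 3.91% of all genes.

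The ratios were small on both sides of 0. Of the 10, 4 lay above 0 (KDR, TEK, CDH5 and FLI1) and 6 below, with a median of -0.09 (-0.0371 without male B), and the median of all genes was -0.02, with 43.8% above 0. The 9 autosomal members had a median of -0.13, beside -0.03 for all autosomal genes. These medians rest on the brightest probe set of each gene. With the tested probe sets of each gene averaged, the median of the 10 was -0.003238. The 95% intervals had a median reach of 0.18 to each side, with no adjustment for the number of probe sets. This reach is not a limit of detection, since TIE1 lay beyond it at -0.22 and was not called. Where whole hearts are measured, a different number of endothelial cells and a different amount of RNA per endothelial cell cannot be told apart.

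**Figure D1:**
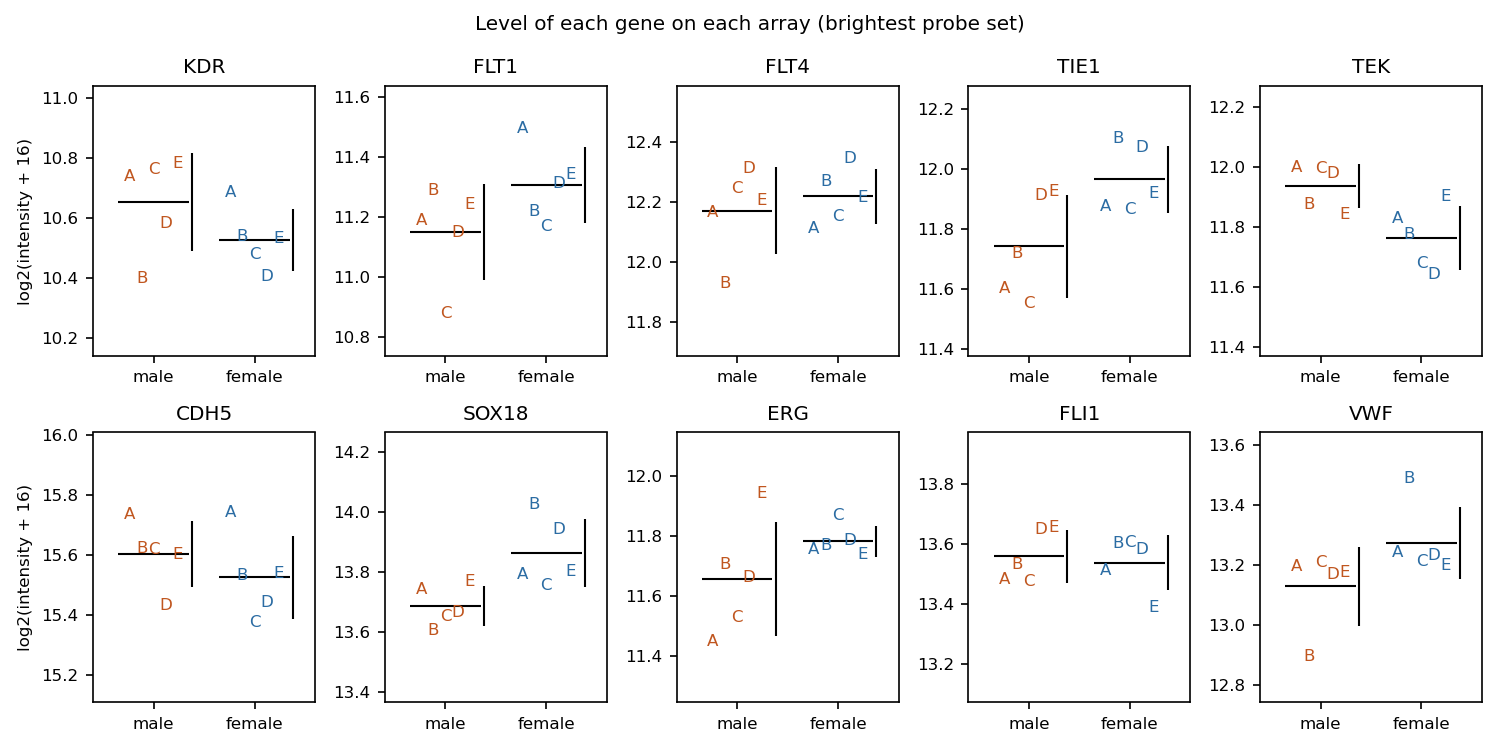
Level of the 10 genes on each array as log2(intensity + 16), each read through its brightest probe set on an axis of its own, with male pools left of female pools. Letters are the pools A to E, the horizontal line is the mean of a sex and the vertical bar its SD. The sexes overlap for every gene, and for SOX18, ERG and VWF 4 of the 5 male pools lie below all 5 female pools.

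KDR encodes the main signalling receptor for VEGFA. Its brightest probe set read 1693, 1333, 1720, 1515 and 1745 in male pools A to E, and 1629, 1470, 1409, 1340 and 1463 in female pools A to E. Males A, C and E exceeded every female pool, but male B was the lowest of all 10. The mean was 1601 ± 175 in male pools and 1462 ± 107 in female pools (± SD over 5 pools per sex), a ratio of 0.13 ± 0.12 with a 95% interval from 0.911-fold to 1.31-fold (limma adjusted p = 0.830). The other 4 probe sets of KDR had ratios of -0.05 ± 0.14, 0.12 ± 0.15, -0.08 ± 0.15 and 0.09 ± 0.20, so the 5 did not share a direction. Without male B the ratio was 0.19, and it was 0.0429 with the 5 probe sets averaged.

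FLT1 encodes a VEGF receptor that binds VEGFA tightly and, in mammals, also exists as a soluble form that holds the ligand back. It read 2321, 2485, 1866, 2255 and 2408 in male pools, and 2875, 2369, 2288, 2525 and 2583 in female pools. Males C and D lay below every female pool and female A was the highest of the 10. The ratio was -0.16 ± 0.11, with means of 2267 ± 240 in males and 2528 ± 227 in females (± SD over 5 pools per sex; limma adjusted p = 0.735). The dimmer probe sets of FLT1 lay at 0.06 ± 0.16 and 0.01 ± 0.25, on the other side of 0, so the lower male level rests on the brightest probe set alone. The ratio was -0.0906 without male C and -0.0293 with the probe sets averaged.

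FLT4 encodes the receptor for VEGFC and VEGFD that directs lymphatic growth in vertebrates and is found on early vessels and endocardium. It read 4578, 3885, 4835, 5068 and 4710 in male pools, and 4413, 4918, 4537, 5183 and 4737 in female pools. Apart from male B, the lowest of the 10, both sexes covered nearly the same range. The ratio was -0.05 ± 0.08 with a 95% interval from -0.23 to 0.13 (limma adjusted p = 0.917). The next brightest pair of tested probe sets had ratios of 0.09 ± 0.27 and 0.48 ± 0.33, the larger from 523 ± 167 in males and 367 ± 119 in females (± SD over 5 pools per sex; limma adjusted p = 0.739). FLT4 therefore had the widest range of ratios over its probe sets among the VEGF receptors.

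The ligands of these receptors were not called either. VEGFA had a ratio of 0.01 ± 0.11, VEGFC of 0.08 ± 0.12 and VEGFD of 0.16 ± 0.27, chosen for their role after their values were seen, and limma adjusted p was 0.993, 0.892 and 0.912. VEGFA averaged 2617 in males and 2616 in females. The co-receptor genes NRP1 and NRP2, chosen in the same way, lay at -0.04 ± 0.11 and -0.16 ± 0.19. Thus no measured ligand or co-receptor gene among these 5 passed the threshold.

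TIE1 encodes an orphan receptor that modulates angiopoietin signalling through TEK. It read 3085, 3352, 2981, 3837 and 3870 in male pools, and 3734, 4378, 3707, 4280 and 3849 in female pools. Males A, B and C were below every female pool, while males D and E lay inside the female range. The means were 3425 ± 414 in male pools and 3990 ± 316 in female pools (± SD over 5 pools per sex), a ratio of -0.22 ± 0.10, or 0.856-fold. It had an unadjusted limma p of 0.0352 and an adjusted p of 0.492.

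The second TIE1 probe set had a ratio close to 0. It read 2933, 3003, 2929, 3192 and 3212 in male pools, and 2908, 3276, 2381, 3167 and 3351 in female pools. All 5 males lay inside the female range, and the ratio was 0.03 ± 0.10 with a 95% interval from -0.19 to 0.24 (limma adjusted p = 0.968). Within each sex the arrays that were high on one TIE1 probe set tended to be high on the other (Pearson r = 0.58 over 10 arrays with values centred within sex, given as a description). The difference between the ratios of these probe sets was not tested, and with both averaged TIE1 lay at -0.0984.

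TEK, also called TIE2, encodes the receptor for ANGPT1 and ANGPT2, which keeps vessels stable and supports the trabeculae of the mammalian heart. It read 4073, 3736, 4063, 4016 and 3651 in male pools, and 3618, 3485, 3259, 3179 and 3810 in female pools. Males A, C and D exceeded every female pool and female E exceeded males B and E. The means were 3908 ± 199 in male pools and 3470 ± 258 in female pools (± SD over 5 pools per sex), a ratio of 0.17 ± 0.08, or 1.13-fold. It did not pass the threshold in limma (unadjusted p = 0.0504, limma adjusted p = 0.549). The dimmer TEK probe set lay at 0.07 ± 0.23, with a 95% interval from -0.43 to 0.56 that holds both no difference and the full ratio of the brighter one.

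TEK lies on Z, where 40.9% of 492 measured genes were called higher in males and the median ratio was 0.40. The 95% interval of the dimmer TEK probe set, from -0.43 to 0.56, held that median. In its brightest probe set TEK was below the median, and so was the upper end of its 95% interval at 0.35. This was not rare on Z: 117 genes (23.8%) had a smaller ratio than TEK and 95 (19.3%) had an interval wholly below the median. The GRCg7b gene table of RefSeq places TEK between LRRC19 and LOC427369. Neither is among the measured genes used here, so the 5 nearest measured genes on each side were taken, a choice made after the values of TEK were seen.

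Among these 10 neighbours, 5 passed the threshold with higher values in males, and the median ratio of the 10 was 0.53. PLAA, a phospholipase A2-activating protein gene, averaged 7715 in males and 5121 in females, a ratio of 0.59 ± 0.09 (limma adjusted p = 0.000758). IFT74, a gene for a part of the transport machinery of cilia, averaged 2512 in males and 1104 in females, a ratio of 1.17 ± 0.16 (limma adjusted p = 0.00043). C9orf72, whose product acts in autophagy and membrane traffic, averaged 6159 in males and 3463 in females, a ratio of 0.82 ± 0.09 (limma adjusted p = 6.01e-05). CAAP1 at 0.83 and IKBKAP at 0.86 were the other called neighbours.

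TEK thus lay between the called and most of the uncalled genes beside it. The remaining 5 neighbours were not called: TMEM215 at 0.11 ± 0.24, ELAVL2 at 0.16 ± 0.29, LINGO2 at -0.30 ± 0.33, CORO2A at 0.06 ± 0.32 and TBC1D2 at 0.46 ± 0.21. Of the 10, 4 had a smaller ratio than TEK. These 4 averaged 427 to 688 in males and 403 to 630 in females, beside 3908 and 3470 for TEK. Their standard errors were 0.24 to 0.33, beside 0.08 for TEK. The other neighbours averaged 1039 to 7715 in males and 763 to 5121 in females, and each had a ratio of 0.46 or more. The differences between TEK and its neighbours were not tested, since these genes were chosen with their values in view.

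**Figure D2:**
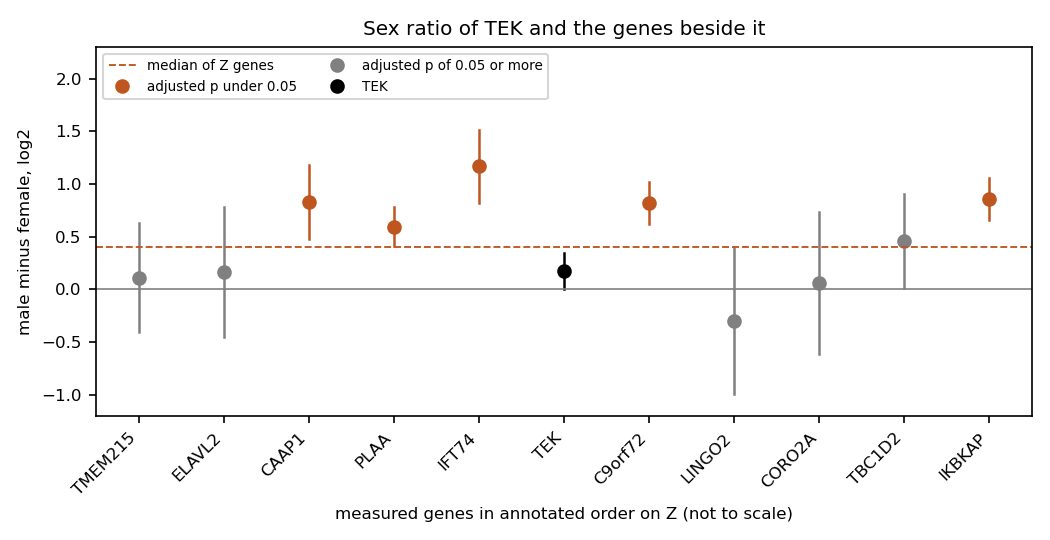
Male minus female log2 ratio of TEK and of the 5 nearest measured genes on each side of it on Z, in annotated order and not to scale, with 95% limma intervals. Each gene is read through its brightest probe set. The interval of TEK ends at 0.35, below the dashed median of Z genes at 0.40, while CAAP1, PLAA, IFT74, C9orf72, TBC1D2 and IKBKAP lie above that median and TMEM215, ELAVL2, LINGO2 and CORO2A below TEK.

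TEK and TIE1, partners in angiopoietin signalling, had ratios on opposite sides of 0. On each array the log2 value of TEK minus that of TIE1 averaged 0.20 ± 0.22 in males and -0.20 ± 0.18 in females (± SD over 5 pools per sex), where only the change between arrays has a meaning. Males ran from -0.08 to 0.44 and females from -0.43 to -0.01, so the sexes overlapped. The difference of 0.40, or 1.32-fold, had a two-sided exact permutation p of 0.0238. With pools paired by letter, the exact sign-flip p was 0.125, in a design that cannot pass the threshold. The difference fell to 0.22 with an exact permutation p of 0.103 when each gene was read as the mean of its probe sets. TEK is on Z and TIE1 on an autosome, and median ratios were 0.40 for Z genes and -0.03 for autosomal genes. A test against 0 thus cannot tell a difference of these partners from that between Z and autosomal genes. TEK and TIE1 also had the highest and lowest ratios of the 10 genes, and no p-value here is adjusted for that choice.

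The TEK ligand genes ANGPT1 and ANGPT2 were not called. ANGPT1, which activates TEK, averaged 1792 in males and 1503 in females, a ratio of 0.24 ± 0.13 (limma adjusted p = 0.634). ANGPT2, a context-dependent antagonist chosen for its role after its values were seen, averaged 2515 in males and 2261 in females, a ratio of 0.16 ± 0.12 (limma adjusted p = 0.770). PTPRB, the vascular phosphatase that acts on TEK, chosen in the same way, lay at 0.12 ± 0.27.

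CDH5, or VE-cadherin, builds the adherens junctions between endothelial cells and is read here by a single probe set. It gave 54638, 50495, 50295, 44190 and 49804 in male pools, and 54847, 47390, 42518, 44510 and 47639 in female pools. Pool A was the brightest of each sex, and the sexes covered nearly the same range, with 3 of the males between 49804 and 50495. The means were 49884 ± 3727 in male pools and 47381 ± 4682 in female pools (± SD over 5 pools per sex), a ratio of 0.08 ± 0.07 with a 95% interval from -0.07 to 0.23 (limma adjusted p = 0.822). Leaving out 1 array gave 0.0387 without female C, 0.0428 without male A, 0.12 without male D and 0.13 without female A.

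SOX18, a SOXF factor needed in mice for vessel and lymphatic development, came nearest to a difference between the sexes. It read 13691, 12453, 12842, 12989 and 13933 in male pools, and 14181, 16652, 13805, 15706 and 14277 in female pools. Males A to D lay below every female pool, and male E was above female C alone. The means were 13182 ± 614 in male pools and 14924 ± 1206 in female pools (± SD over 5 pools per sex), a ratio of -0.18 ± 0.06, or 0.885-fold. The unadjusted limma p was 0.0151 and the adjusted p 0.342, so SOX18 was not called. SOX7 and SOX17, the other SOXF genes, named for their family after their values were seen, lay at -0.11 ± 0.06 and 0.01 ± 0.10 (limma adjusted p = 0.656 and 0.987).

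ERG, an ETS factor that maintains endothelial identity and junctions, had its widest spread among males. It read 2779, 3327, 2938, 3225 and 3924 in male pools, and 3441, 3475, 3727, 3513 and 3404 in female pools. Males A to D were below every female pool, but male E was the highest of the 10. The ratio was -0.13 ± 0.10, from 3239 ± 441 in males and 3512 ± 127 in females (± SD over 5 pools per sex; limma adjusted p = 0.773). The second ERG probe set lay at 0.07 ± 0.14 (limma adjusted p = 0.931), on the other side of 0. The ratio was -0.0734 without male A, -0.20 without male E and -0.0278 with both probe sets averaged.

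FLI1, an ETS factor that also acts in megakaryocyte development in mammals, was the gene nearest to 0. It read 11423, 11826, 11365, 12832 and 12878 in male pools, and 11650, 12420, 12434, 12237 and 10702 in female pools. Males D and E were the highest of the 10 and female E the lowest. The means were 12065 ± 743 in male pools and 11889 ± 736 in female pools (± SD over 5 pools per sex), a ratio of 0.02 ± 0.06 with a 95% interval from -0.12 to 0.16 (limma adjusted p = 0.956).

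VWF, the gene for von Willebrand factor, read 9367, 7608, 9439, 9181 and 9243 in male pools, and 9678, 11469, 9466, 9599 and 9381 in female pools. Both B pools stood apart, male B below and female B above the other 4 pools of their sex. The other 8 pools lay between 9181 and 9678, with 3 of the 4 males below the lowest female. The means were 8968 ± 767 in male pools and 9918 ± 874 in female pools (± SD over 5 pools per sex), a ratio of -0.15 ± 0.08 (limma adjusted p = 0.620). It was -0.0875 without male B and -0.0922 without female B. A dimmer VWF probe set lay at -0.09 ± 0.27 (limma adjusted p = 0.958).

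**Figure D3:**
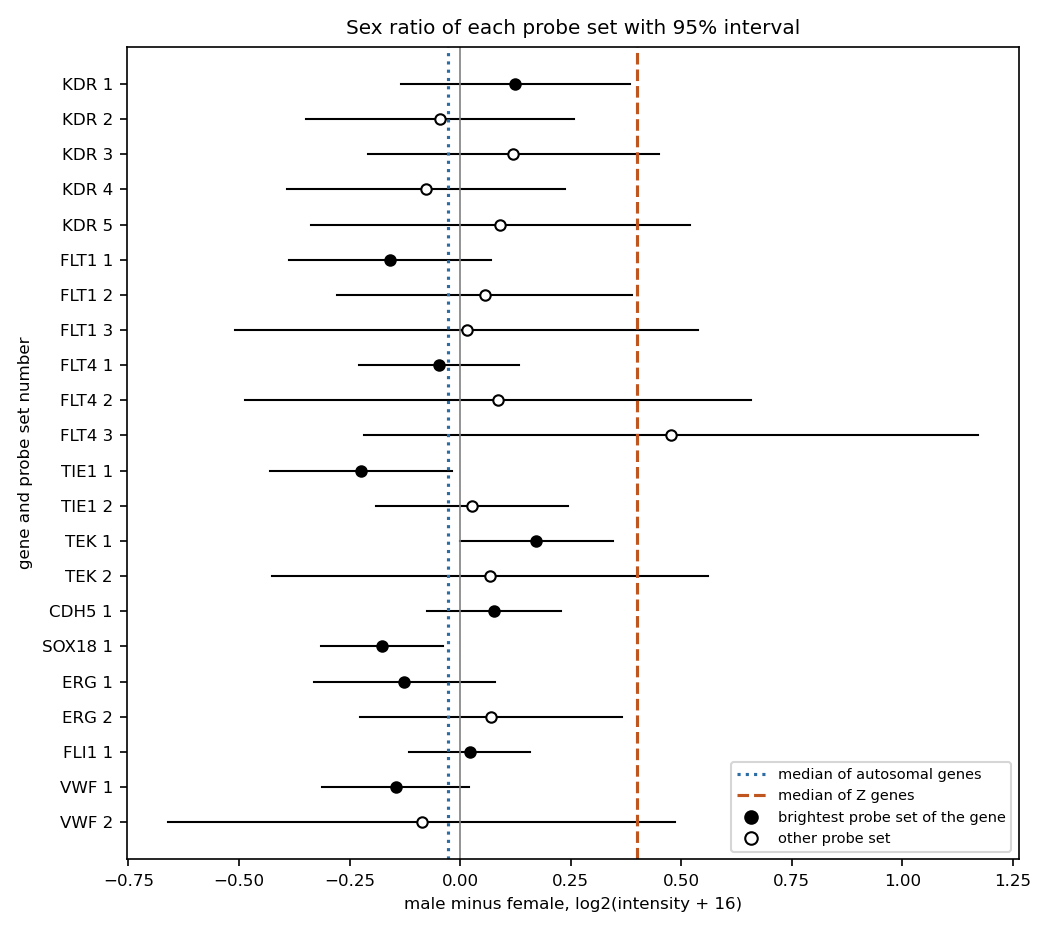
Male minus female log2 ratio of the tested probe sets of the 10 genes with 95% limma intervals, filled for the brightest probe set of each gene, with lines at the medians of autosomal genes (-0.03) and of Z genes (0.40). Probe sets of KDR, FLT1, FLT4, TIE1 and ERG lie on both sides of 0, and none passed the adjusted threshold of 0.05.

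Between pools of the same sex, all 10 genes varied less than the median gene. Their within-sex standard deviation on the log2 scale ran from 0.09 for FLI1 to 0.15 for TIE1, with a median of 0.13, beside 0.18 for all genes. The genes were not matched on level, so this is a description of these probe sets.

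Co-variation of the genes from pool to pool was described pair by pair, and the set as a whole was not tested. After the values of each gene were centred on its mean in each sex, the 45 pairs of the 10 genes had a median Pearson r of 0.06. The quartiles were -0.19 and 0.42, and 26 pairs (57.8%) lay above 0. All pairs of measured genes had a median of 0.00 (0.0005), with 50.1% above 0 and quartiles of -0.27 and 0.27. None of the 45 passed an exact permutation test within each sex after Benjamini-Hochberg adjustment, for Pearson's r or Spearman's rho. Unadjusted, 6 had a Pearson p and 5 a Spearman p under 0.05 in that test, and the share of all gene pairs with such a p is not given here. Of all pairs of measured genes, 1.58% had an r at or above the highest of the 45 and 2.10% an r at or below the lowest.

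The 3 highest pairs joined a transcription factor or receptor to FLI1 or VWF. TIE1 and FLI1 had r = 0.73 (exact permutation p = 0.0375, adjusted 0.352) and rho = 0.72 (exact permutation p = 0.0534, adjusted 0.365), and r was 0.56 without the 2 arrays farthest from the median of TIE1. SOX18 and VWF had r = 0.72 (exact permutation p = 0.0160, adjusted 0.347) and rho = 0.70 (exact permutation p = 0.0315, adjusted 0.354), with r = 0.46 without the 2 farthest arrays. FLT4 and VWF had r = 0.67 (exact permutation p = 0.0666, adjusted 0.405) and rho = 0.48 (exact permutation p = 0.183, adjusted 0.459), with r = 0.34 without the 2 farthest. Each of these r was lower without the farthest arrays, most of all for the VWF pairs.

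The 3 lowest pairs set TEK or CDH5 against an ETS factor. TEK and FLI1 had r = -0.70 (exact permutation p = 0.0391, adjusted 0.352) and rho = -0.72 (exact permutation p = 0.0219, adjusted 0.329), with r = -0.63 without the 2 farthest arrays. TEK and ERG had r = -0.65 (exact permutation p = 0.00208, adjusted 0.0938) and rho = -0.76 (exact permutation p = 0.00563, adjusted 0.253), with r = -0.64 without the 2 farthest. CDH5 and FLI1 had r = -0.54 (exact permutation p = 0.137, adjusted 0.514) and rho = -0.70 (exact permutation p = 0.0435, adjusted 0.365), with r = -0.54 again without the 2 farthest. TEK with ERG had the lowest adjusted p of the 45, and it was 0.0156 without female C (r = -0.62) or without female D (r = -0.76). Leaving out any other array gave a lowest adjusted exact permutation p of 0.0781 to 0.354 among the 45. That lowest value was 0.243 after quantile normalization and 0.382 after centring on autosomal genes.

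**Figure D4:**
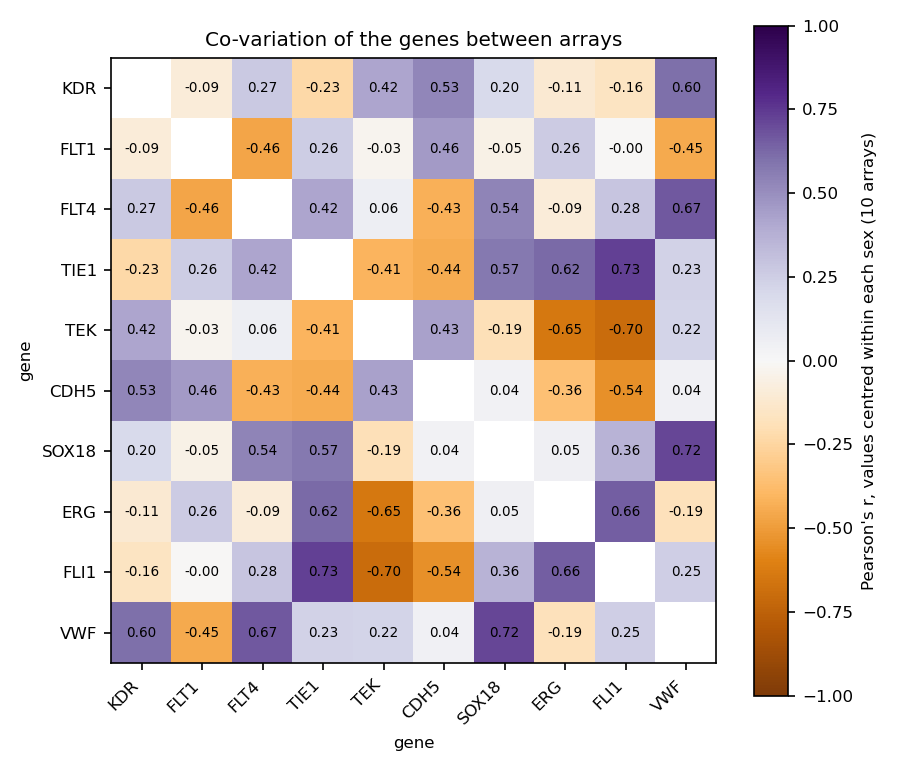
Pearson r between the 10 genes over 10 arrays, after the values of each gene were centred on its mean in each sex, as a colour grid from -1 to 1. TEK has its lowest values with FLI1 at -0.70 and ERG at -0.65, and the highest value in the grid is 0.73 for TIE1 with FLI1.

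How far these arrays can show such relations is seen in genes read by several probe sets. For the brightest 2 probe sets of a gene, within-sex r was 0.58 for TIE1, 0.47 for ERG, 0.29 for VWF, 0.14 for TEK, 0.12 for KDR, 0.12 for FLT1 and -0.13 for FLT4. The median of these 7 was 0.137, beside 0.138 over 4932 genes. Probe sets of 1 gene thus followed each other weakly across pools, here and on the array as a whole.

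The genes closest to the mean profile of the 10 were IMP3 (r = 0.96), GTF2I (0.94), TTC21B (0.89), RNF170 (0.89) and SLC35E3 (0.89), over the same 10 arrays with values centred in the same way. These were the highest of all other measured genes, which a search over that many genes will always supply. None of the 5 was called between the sexes. Of the 10, SOX18 at 0.61 and VWF at 0.57 followed the mean of the other 9 most closely, and TEK at -0.19 least.

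No other gene of the endothelial and endocardial lists was called between the sexes. Across 5 lists of other genes, 69 of 89 were measured, 0 passed the threshold in limma and 7 (10.1%) had an unadjusted p under 0.05, close to the 10% among all genes. The median ratio was 0.00 (0.000416), with 35 of 69 above 0.

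Of 15 ligands and co-receptors of the VEGF and angiopoietin systems, 12 were measured, with a median ratio of 0.04 and 8 above 0. ANGPT1 had the largest ratio, and ANGPTL1, an angiopoietin-like secreted factor gene, lay at 0.17 ± 0.19 (limma adjusted p = 0.857). ANGPTL1 was at 0.31 without male A, 0.0999 without male E and -0.00392 without male B. Of 23 junction and surface genes, 15 were measured, with a median of -0.02. CALCRL, the receptor gene for adrenomedullin and CGRP, lay at 0.48 ± 0.30 and JAM3, a tight junction adhesion gene, at -0.36 ± 0.24 (limma adjusted p = 0.696 and 0.721). CALCRL was at 0.16 without female D and at 0.29 with its probe sets averaged.

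Of 22 endothelial transcription factor genes, 18 were measured, with a median of -0.03 and 4 at an unadjusted limma p under 0.05, against 10% of all genes. These 4 were LMO2 at -0.19 ± 0.08, HEY2 at -0.51 ± 0.23, ETS2 at 0.38 ± 0.17 and MEF2C, none of them called. TAL1, a factor of blood and endothelial lineages, lay at 0.70 ± 0.44 (limma adjusted p = 0.705). It was at 0.45 without female A, 1.1 without female B and 0.17 with its probe sets averaged. MEF2C, a cardiac and vascular factor gene on Z, averaged 2326 in males and 1637 in females, a ratio of 0.54 ± 0.20 (limma adjusted p = 0.367), or 0.35 without female E.

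Of 16 endocardial and cushion genes, 15 were measured, with a median of 0.06. NPR3, a natriuretic peptide clearance receptor gene on Z that marks endocardium in mice, averaged 7720 in males and 5960 in females, a ratio of 0.38 ± 0.14 (limma adjusted p = 0.331), or 0.22 with its probe sets averaged. DLL4, a Notch ligand gene of arterial endothelium, lay at -0.37 ± 0.18 (limma adjusted p = 0.569). Of 13 haemostasis and vascular tone genes, 9 were measured, with a median of 0.02. PROS1, the gene of the anticoagulant protein S, averaged 3436 in males and 2440 in females, a ratio of 0.49 ± 0.17 (limma adjusted p = 0.320), and PLAT, the tissue plasminogen activator gene, lay at -0.48 ± 0.31 (limma adjusted p = 0.720), or -0.32 without male B and -0.31 without female D.

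**Figure D5:**
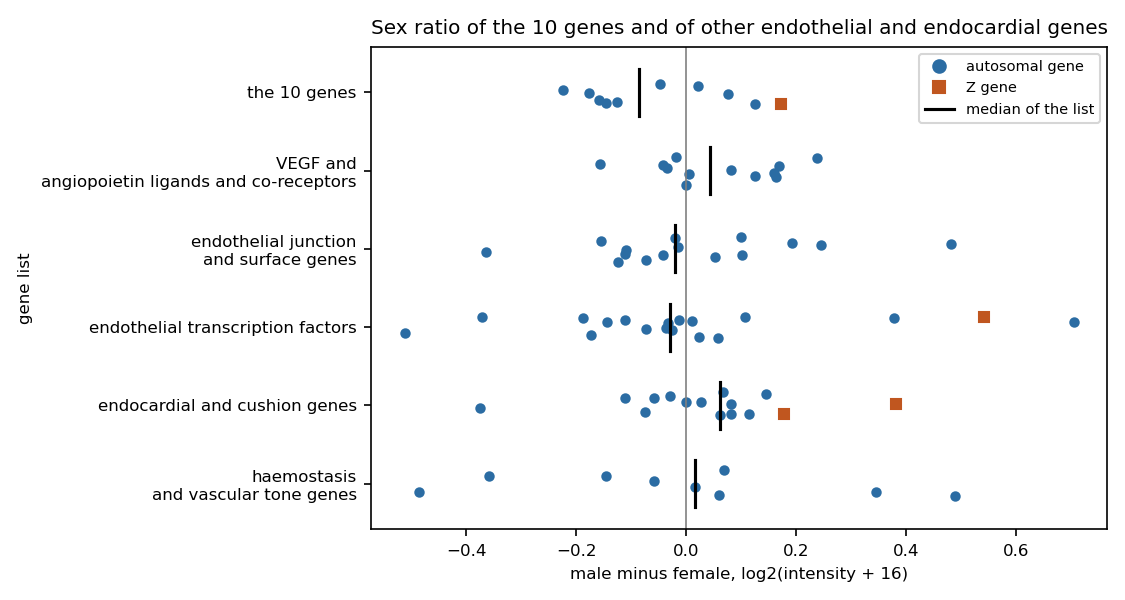
Male minus female log2 ratio of the measured genes of 5 endothelial and endocardial lists and of the 10 genes, a round point per autosomal gene and a square per Z gene, with the median of each list as a bar. The medians lie between -0.09 for the 10 genes and 0.06 for endocardial and cushion genes, and no gene in the plot passed the threshold.

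Markers of the other cells of a whole heart were measured alongside. Cardiomyocyte markers were the brightest list, with 11 of 13 measured and a summed intensity from 1154300 to 1472200 in males and from 1216000 to 1460400 in females. All 11 had ratios below 0, from -0.52 to -0.00097, with a median of -0.06. The median of autosomal genes was -0.03, and 43.8% of all genes lay above 0. A shift of these markers as a set was not tested. PLN, the calcium pump regulator phospholamban, was the 1 called. It averaged 1464 in males and 2101 in females, a ratio of -0.52 ± 0.11 (limma adjusted p = 0.0238). The 4 thrombocyte markers measured, of 10 listed, had a median ratio of -0.20, and their sum ran from 10041 to 13061 in males and from 12352 to 15345 in females. Mammalian VWF and FLI1 are also made in the platelet lineage, and the part of thrombocytes in the values of VWF, FLI1 or SOX18 was not tested. The largest ratios in that list were -0.24 ± 0.15 for TUBB1, a tubulin gene of thrombocytes, and -0.22 ± 0.32 for GFI1B. ITGB3 lay at -0.18 ± 0.13 and F13A1, the 1 above 0, at 0.0029 ± 0.09. Erythroid markers, 7 of 13 measured, had a median of -0.14, and all 7 had ratios below 0, from -0.52 to -0.10. Leukocyte markers, 5 of 8 measured, had a median of -0.11. Sums of both lists overlapped between the sexes, and a shift of either list as a set was not tested. The embryonic globin gene HBZ lay at -0.52 ± 0.16 (limma adjusted p = 0.203) and EPB42 at -0.20 ± 0.11. In the leukocyte list, with 2 genes above 0 and 3 below, the dim PTPRC and SPI1 lay at -0.42 ± 0.37 and -0.30 ± 0.25. LCP1 lay at -0.11 ± 0.11, while the brighter CSF1R and CD74 lay at 0.08 ± 0.09 and 0.07 ± 0.07.

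Fibroblast markers lay at a median of 0.06, with 8 of 10 above 0. Smooth muscle and epicardial markers lay at a median of -0.03 each, with 2 of 6 and 1 of 4 measured genes above 0. MSLN, the 1 epicardial marker above 0, averaged 579 in males and 478 in females. LUM, the gene of the collagen-binding proteoglycan lumican, averaged 31576 in males and 24998 in females, a ratio of 0.33 ± 0.08 just outside the threshold (limma adjusted p = 0.0511). TCF21, a factor of epicardium and fibroblasts that is in both lists, lay at -0.23 ± 0.09, MSLN at 0.34 ± 0.31, MYH11 at 0.51 ± 0.27, RGS5 at -0.10 ± 0.12 and the cardiac factor gene NKX2-5 at -0.15 ± 0.05, none of them called. The part of these cell types in the values of the 10 genes was not tested. The log2 ratio of 3′ over 5′ control probe sets, a sign of RNA quality, was 0.63 to 0.81 in males and 0.55 to 0.81 in females for actin, and -0.18 to 0.02 in males and -0.16 to -0.04 in females for GAPDH.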

How the data were processed

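The authors deposited 1 linear intensity per probe set and array in a value table, and the software that made these intensities is not given in the sources used here. Over probe sets, the mean after trimming 2% at each end was 2500.54 to 2500.57 on every array, so scaling had been applied. Probe sets were named through the platform annotation (27178 with 1 symbol, 177 with several, 11180 unnamed), which can be old, and symbols, chromosomes and gene order were updated from the RefSeq GRCg7b table (26863 by gene ID, 308 by symbol, 7 not matched). The values name no genome build, so no coordinates are given.

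Tests left out 96 control probe sets and, among the others, the dimmest 40% by their mean over the 10 arrays. The remaining 23063 probe sets were analysed as log2(intensity + 16) with limma 3.58.1 in R 4.3.3 (lmFit, eBayes with a variance trend), with Benjamini-Hochberg adjustment over all of them and a threshold of 0.05. A gene was read through its brightest probe set. Exact permutation tests and figures used Python 3.11.15, scipy 1.17.1 and matplotlib 3.10.9. The fit was run on simulated data with independent noise for each probe set and array, so effects shared across an array were not tested. No detection calls were used, so signal was not separated from background, and precision is limited by having 10 arrays.

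Named were all 10 genes with their probe sets, in each other list any called gene and the 2 with the largest ratio, the 3 highest and 3 lowest pairs, and the 5 genes closest to the mean profile. Genes named for their role, their family, their place beside TEK or their unadjusted p were chosen after their values were seen. So were those named as the rest of the leukocyte or thrombocyte list. The genes, lists and tests were chosen with earlier results of these data known. The letters A to E number the pools of both sexes. Arrays of 1 letter had deviations that correlated at 0.0108 to 0.218, over 0.1 for 3 of 5 letters. Those of different letters correlated at -0.182 to 0.0924, and for 3 of 5 letters the 2 arrays correlated best with each other. The labels do not say whether a letter pairs pools, and the main tests did not treat them as pairs. Whether letters share a part of their values was not tested, and the p-values may depend on this choice. Alternatives were a replicate block, other filters and pseudocounts, quantile normalization, centring on autosomal genes, averaging all tested probe sets per gene, no variance trend, array weights and leaving out each array.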

Additional observations from a re-analysis of the deposited data

Results flagged for a closer look

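Of 44 groups of 5 arrays, 1 per tested probe set and sex, 3 held an array whose gap to the nearest other array, as a share of the whole range, was above the 95% limit of 0.71 for 5 samples. Chance alone passes this limit in about 1 in 20 groups. In the brightest probe set of VWF, male B was lowest at 7608 with the other males from 9181 to 9439 (share 0.872). In the same VWF probe set, female B was highest at 11469 with the other females from 9381 to 9678 (share 0.845). In the second ERG probe set, female E was lowest at 1701 with the other females from 2348 to 2628 (share 0.741).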

How the results depend on the processing

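None of the 10 genes passed the threshold under any of the 20 alternatives. Nor did any of the 69 other endothelial and endocardial genes measured, where it was tested. Leaving out the dimmest 60% of probe sets removed some of the 69 from the test, among them JAM3, CALCRL, DLL4 and PLAT. Of 396 ratios recomputed for single genes 6 changed sign. Calls over all genes numbered 229, with a range of 196 to 237. With the tested probe sets of each gene averaged, FLT4 lay at 0.17. Probe sets below the filter, among them some of FLT4 and VWF, were left out of these means. The median ratio of the 10 genes was then -0.003238 in place of -0.09, and the TEK minus TIE1 difference was 0.22 (exact permutation p = 0.103). With the replicate block that difference stayed at 0.40 with an exact sign-flip p of 0.125, in a design of 5 differences that cannot pass 0.05. Without 1 array in turn, the median ranged from -0.11 (without male E) to -0.0371 (without male B), the number of pairs past the threshold from 0 to 1 (TEK with ERG), and the ratio of FLT4 from -0.0822 to 0.0134, of FLI1 from -0.0160 to 0.0423 and of ANGPTL1 from -0.00392 to 0.31. Other uncalled ratios that moved by over 1.5 times are given beside the genes. The causes were not tested, beyond the probe sets that the mean brings in. The pairs of genes were not run with the replicate block, which would leave 5 independent differences.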

Other observations

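Relatives of these genes that lie beside them in the annotated order, chosen after their values were seen, were not called either. ETS2, next to ERG, averaged 1411 in males and 1101 in females, a ratio of 0.38 ± 0.17 (limma adjusted p = 0.541). ETS1, next to FLI1, averaged 4549 in males and 5107 in females, a ratio of -0.17 ± 0.10 (limma adjusted p = 0.638). KIT, next to KDR, lay at 0.22 ± 0.13 (limma adjusted p = 0.685), and CDH11, next to CDH5, at 0.10 ± 0.11 (limma adjusted p = 0.844).

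A dim FLT4 probe set that stayed below the filter, and so was not tested, read 17 to 28 in males and 27 to 86 in females, with 4 of 5 males below the lowest female. These intensities are close to the 16 added before taking logs, and the 4 other FLT4 probe sets did not share this direction throughout. A VWF probe set below the filter averaged 339 in males and 246 in females.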
